A study of Mus musculus with 170 samples.

Results

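Among the single cells taken from E9.5 mouse hearts, the 69 Dgcr8 conditional knockout (cKO) cells were sequenced in 2 batches, and batch 1 is compared here with batch 2 while the genotype is held constant. The cells were chosen by their titles, which name the genotype and the sequencing batch, and gave 35 cKO cells in batch 1 and 34 in batch 2, out of 143 cells in the table. The 74 control cells, 35 in batch 1 and 39 in batch 2, served to see whether the same difference appeared in the other genotype. The study asked what loss of microRNA does to early heart cells. cKO embryos carried Cre recombinase at the Mesp1 locus and floxed Dgcr8 alleles (given as Mesp1Cre/+; Dgcr8-/- in the labels), with the 2-color ROSA26 mT/mG membrane reporter. Mesp1-Cre acts in the mesoderm progenitors of the heart, so muscle, endothelial and epicardial lineages all derive from recombined cells. Control cells, called wild type in the labels, carried floxed Dgcr8 and the same reporter without Cre. All embryos were of the C57BL/6 strain. The ventricular part of each heart was digested with trypsin and collagenase, and cells were picked by mouth pipette for Smart-seq2, which copies full-length polyadenylated RNA.

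The labels name no embryo, so each genotype in each batch was 1 sample and batch could not be told apart from embryo, litter or day of dissection. No test was possible and none was run. Levels are means of log2(TPM + 1) ± SD across cells, where TPM scales the transcripts of each cell to the same total, corrected for transcript length, and a difference is the mean in batch 2 minus the mean in batch 1. The first number in each title divided the cKO cells of each batch into 6 sets of 4 to 7 cells. The labels do not say what this number marks, and the sets were used only to describe the spread within a batch.

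Immediate early genes encode transcription factors and signalling inhibitors that are switched on within minutes of growth factor signals, stretch or cell dissociation, without new protein synthesis. The integrated stress response works through phosphorylation of eIF2 alpha, which lowers general translation while favouring translation of Atf4, a factor that turns on amino acid supply and stress genes. The embryonic heart tube is patterned along its length. Ventricular muscle makes the regulatory light chain Myl2 and the calcium pump regulator phospholamban, and the inflow and atrial end makes Nr2f2, Tbx5 and more Myh6.

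Both batches of cKO cells were almost entirely cardiac muscle by their markers. Cardiomyocyte-like (CM-like) cells made up 33 of 35 cKO cells in batch 1 (94.3%, exact Clopper-Pearson 95% interval 80.8 to 99.3) and 34 of 34 in batch 2 (100%, interval 89.7 to 100), where the intervals cover counting error only. The 2 remaining cells of batch 1 were unnamed, and rows of the mitochondrial genome took 18.6% and 61.4% of their TPM. Tnnt2, the cardiac troponin T gene, had a TPM of at least 1 in 35 of 35 and 34 of 34 cells. CM-like control cells numbered 19 in batch 1 and 10 in batch 2, and endothelial-like control cells 7 and 15. The median number of genes with TPM above 0 per cKO cell was 9751 in batch 1 (lowest 4462, highest 11044) and 7765 in batch 2 (4244 to 9851). Most of this gap lay among values below 1 TPM, of which the median cKO cell had 2629 in batch 1 and 1076 in batch 2. Genes with TPM of at least 1 had closer medians, 7088 and 6720. CM-like control cells showed the same drop below 1 TPM, from 2612 to 1136.5 genes, but the opposite direction at 1 TPM or more, from 5864 to 8546.5 genes.

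**Figure D1:**
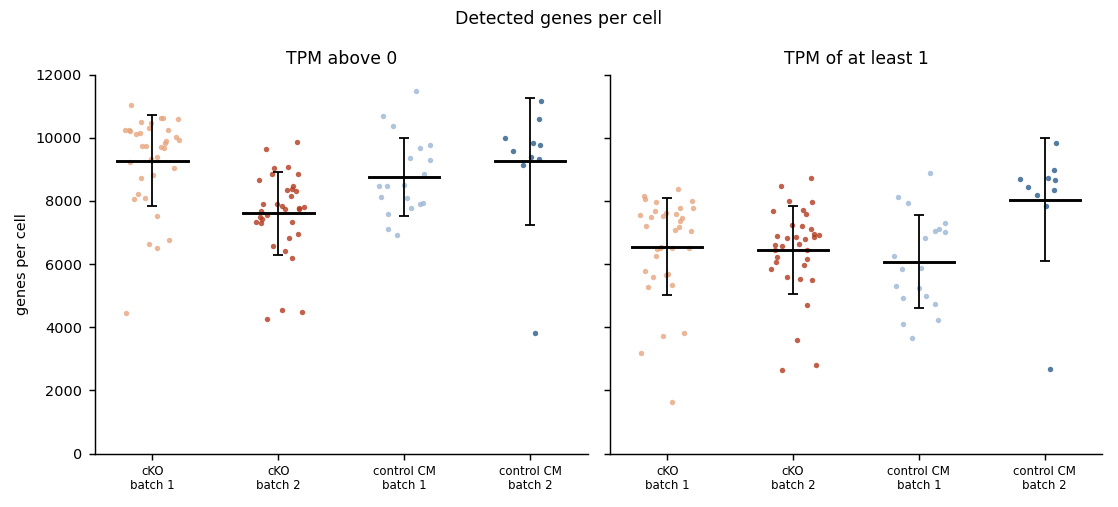
Genes per cell with TPM above 0 (left) and with TPM of at least 1 (right), for cKO cells and CM-like control cells (control CM) of each batch. Each point is a cell, and the black line and bar give the mean and SD across cells. The cKO batches stand apart on the left (medians 9751 and 7765) and lie close on the right (7088 and 6720).

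Dgcr8, the targeted gene, had a TPM of 1 or more in 14 of 35 knockout cells of batch 1 and 7 of 34 of batch 2, with levels of 2.25 ± 2.70 and 0.97 ± 1.96 against 2.58 ± 2.99 and 2.69 ± 2.91 in the CM-like control cells. The TPM row sums the whole gene, so reads from a transcript that lacks the deleted exon would still be counted. Xist, the long RNA of the inactive X chromosome, was found at that level in 31 of 35 and 33 of 34 knockout cells. Ddx3y, on the Y chromosome, was found so in 0 of 35 and 0 of 34, which allows a share of up to 8.57% and 8.82%, taken as 3 cells of the total (the exact interval reaches 10.0% and 10.3%). In control cells the pattern was the reverse in both batches, with Ddx3y in 21 of 35 and 28 of 39 cells and Xist in 1 of 35 and 2 of 39. The 2 cKO batches were therefore alike in this respect, and genotype and sex could not be told apart in the comparison with control cells.

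Across the 13779 genes with TPM above 0 in more than 10 cKO cells, the median difference between the batches was -0.01 with an SD of 0.56 across genes. Genes higher in batch 2 by 1 log2 unit or more numbered 461 (3.35% of genes) and genes lower by as much numbered 609 (4.42%). Without the cells of first number 12 there were 753 higher genes. Past 2 log2 units there were 30 and 41. The spread between cells was large beside these differences, with a median SD of 1.91 per gene in batch 1 and 1.97 in batch 2. All 6 set means of batch 2 lay above all 6 of batch 1 for 40 genes (0.29%) and below them for 50 genes (0.363%). Fos, Ctgf, Nr4a1, Dusp1, Jun, Fosb, Tbx5 and Myh6 were among the 40, and Myl2, Pln, Myl3, Acad10 and Mrps17 among the 50. In CM-like control cells 3661 genes (26.6%) were higher and 260 (1.89%) lower by 1 log2 unit, around a median of 0.40 over all genes. In endothelial-like control cells 1107 (8.03%) were higher and 2384 (17.3%) lower, around a median of -0.09. Batch differences in control cells are therefore read against those medians.

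Immediate early genes were higher in batch 2 as a group. Of 30 listed genes 25 passed the filter, 24 of the 25 had a positive difference, 14 were higher by 1 log2 unit or more and none was lower by as much. The median was 1.39, beside -0.01 over all genes. Averaged over the 25 genes, the level of a cell ran from 0.32 to 5.12 with a median of 2.63 in batch 1, and from 1.5 to 6.45 with a median of 4.06 in batch 2. The cells of the batches overlapped, and the median cell was higher in batch 2.

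Fos (chr12:85473890-85477273, GRCm38), a subunit of the AP-1 transcription factor, showed the largest difference of the list. Its level ran from 0.82 through a median of 6.70 to 11.31 in batch 1 and from 1.81 through 9.83 to 11.75 in batch 2. Nearly all cells of both batches held Fos RNA at TPM of at least 1, 34 of 35 and 34 of 34, so the share at that cutoff could hardly differ. Shares of cells at a higher Fos level were not counted. The means were 6.14 ± 3.06 and 8.94 ± 2.45, a difference of 2.79, and set means ran from 4.30 to 7.33 in batch 1 and from 8.25 to 10.87 in batch 2 without overlap. Its AP-1 partner Jun differed by 2.02 (5.16 ± 2.57 and 7.18 ± 2.51), also without overlap of the set means. Fosb, a further AP-1 subunit, was at TPM of at least 1 in 17 of 35 and 25 of 34 cells and differed by 2.38.

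Nr4a1, an orphan nuclear receptor, was detected at TPM of at least 1 in 10 of 35 cells of batch 1 and 24 of 34 of batch 2. Its median was 0.27 in batch 1 and 5.25 in batch 2, and its difference was 2.77, so here the share of cells moved as well as the level. Dusp1, a phosphatase that switches off MAP kinases, had medians of 3.10 and 5.96 and a difference of 2.67. Klf6, a zinc finger factor, differed by 2.53 and Atf3, a stress-induced repressor, by 2.48. Ctgf and Cyr61, secreted matrix proteins that are targets of YAP and SRF, differed by 2.79 and 1.99. Ctgf was at TPM of at least 1 in 30 of 35 and 34 of 34 cells, with means of 5.75 ± 3.80 and 8.54 ± 2.33. Egr1, a zinc finger factor of the growth factor response, was at TPM of at least 1 in 10 of 35 and 20 of 34 cells and differed by 1.87. Srf, the factor that binds the promoters of many of these genes, was the only listed gene below 0, at -0.36.

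The control cells shared part of this pattern. The median of the list was 1.65 in CM-like cells, where 16 genes were higher and 2 lower by 1 log2 unit around the general median of 0.40, and 0.70 in endothelial-like cells around -0.09. Of all genes 26.6% were higher and 1.89% lower by as much in the CM-like control cells. Ctgf, Klf6, Atf3, Dusp1, Jun and Nr4a1 were all higher in batch 2 in CM-like control cells, by 4.27, 3.63, 3.20, 2.10, 1.71 and 1.72. Fos and Egr1 were the 2 lower genes. Fos was on the opposite side, at 6.86 ± 2.96 in batch 1 and 5.73 ± 2.13 in batch 2 (difference -1.13), and in endothelial-like cells at -1.43. Egr1 was at -1.13 and -2.53 in the same cells. Fos and Egr1 were thus higher in batch 2 in cKO cells and lower in CM-like and endothelial-like control cells, but at 0.25 and 0.73 in the 4 and 9 epicardial-like ones, whereas Ctgf, Klf6, Atf3, Jun and Nr4a1 were higher in cKO, CM-like and endothelial-like cells by more than 1 log2 unit. These contrasts between genotypes were not tested.

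**Figure D2:**
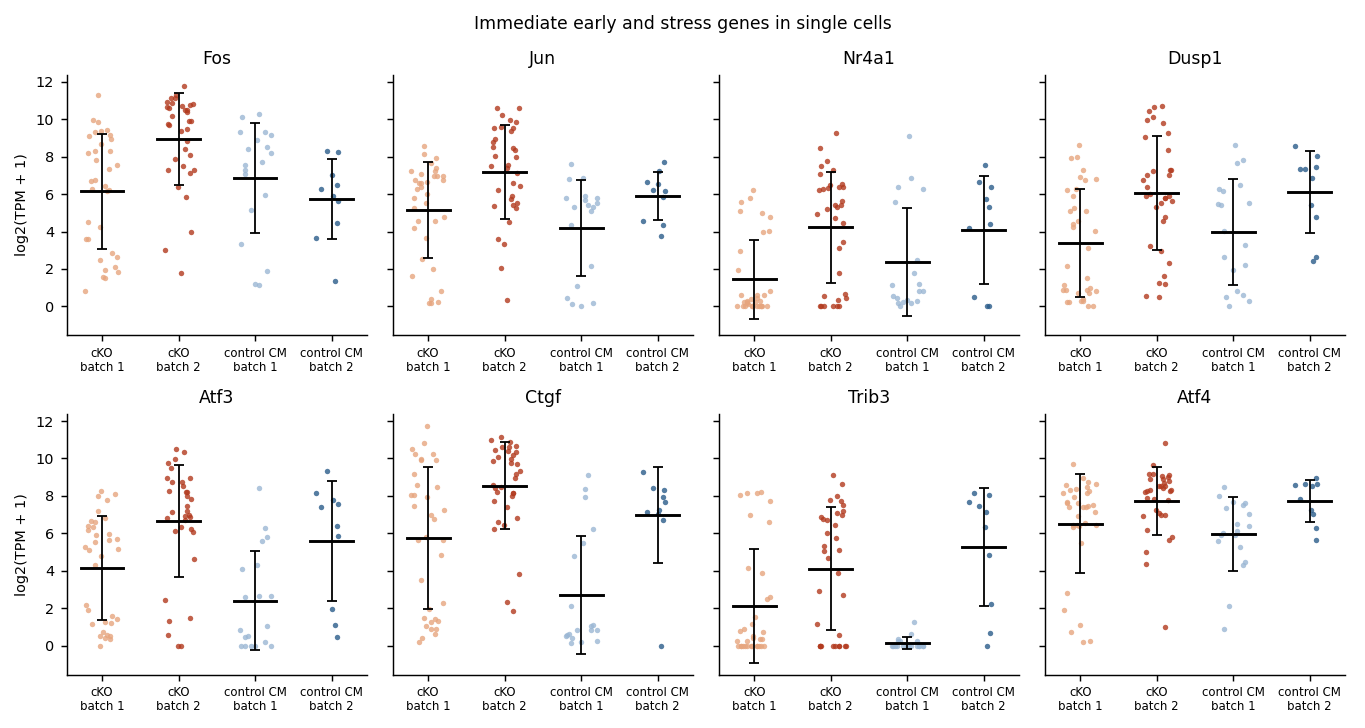
Level of 8 immediate early and stress genes, log2(TPM + 1), in each cKO cell and each CM-like control cell (control CM) of batch 1 and batch 2. Points are cells, and the black line and bar give the mean and SD across cells. Fos was higher in batch 2 in cKO cells (difference 2.79) and lower in CM-like control cells (-1.13), whereas Ctgf and Atf3 were higher in batch 2 in both genotypes.

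Genes of the integrated stress response were also higher in batch 2. Of 28 listed genes 27 passed the filter, 22 had a positive difference, 9 were higher by 1 log2 unit or more and none was lower by as much. The median was 0.80. It was 0.47 without the cells of first number 3, and 0.36 in the 10 and 19 cells with 7500 to 9500 detected genes, where the median over all genes was 0.21. Atf4, the central transcription factor, differed by 1.25 (6.5 ± 2.64 and 7.75 ± 1.82) and was at TPM of at least 1 in 32 of 35 and 33 of 34 cells. Trib3, a pseudokinase that feeds back on this response, had the largest difference at 2.00, with TPM of at least 1 in 13 of 35 and 23 of 34 cells and medians of 0.41 and 5.10. Asns, asparagine synthetase, differed by 1.12, Phgdh, which starts serine synthesis, by 1.32, Mthfd2 and Shmt2 of mitochondrial folate metabolism by 1.10 and 1.06, and Sesn2, an inhibitor of mTORC1, by 1.33. Ddit3, which encodes CHOP, differed by 0.18, with TPM of at least 1 in 27 of 35 and 27 of 34 cells, and the glutathione-degrading enzyme gene Chac1 by -0.06. The Ddit3 value was 0.86 without the 6 cells of first number 12 and -0.23 without those of first number 8.

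In CM-like control cells the same list stood further apart, with a median of 1.89 and 21 of 27 genes higher by 1 log2 unit. Of all genes 26.6% were higher by as much in these cells, around a median of 0.40. Relative to that median the list stood at 1.48. Trib3 went from 0.16 ± 0.32 to 5.27 ± 3.15 there, and Ddit3 differed by 3.46 and Chac1 by 3.61. The CM-like control cells of batch 1 thus held almost no Trib3, whereas 13 of 35 cKO cells of batch 1 already did. In endothelial-like control cells the median was 0.12 and Trib3 differed by 0.07.

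Promoters are shown for 4 of the listed genes that were higher in batch 2 and hold a known stress or cyclic AMP element. They come from RefSeq on GRCm38.p6, as 250 bases before to 50 after the gene start, and 25 integrated stress and 24 immediate early genes had an entry. The C/EBP-ATF response element (CARE), searched as TGATGNAA on both strands, is the site through which Atf4 acts. It was present in 9 of 25 integrated stress promoters (36%), in 1 of 24 immediate early promoters (4.17%) and in 4.51% of all 27025 genes with a promoter entry. The 9 include Chac1 and Pycr1, which stood at -0.06 and -0.53, and Fgf21, which did not pass the filter. The cyclic AMP response element (CRE), searched as TGACGTCA, was in 3 of 24 immediate early promoters (12.5%) and in 2.03% of all. The AP-1 site TGANTCA was in 0 of 24 immediate early promoters and in 8.97% of all, and the CArG box bound by Srf was in 3 of 24 (12.5%) and in 1.81% of all. These 3 were Egr2, which did not pass the filter, Srf itself, at -0.36, and Zfp36, at 1.16. A match is a description of the letters and not of binding. Windows of 60 bases follow 5′ to 3′ in the sense of the gene, all on the minus strand of the genome, with the matched element in capitals, from Trib3 (chr2:152344013-152344072), Asns (chr6:7693199-7693258), Atf3 (chr1:191183410-191183469) and Dusp1 (chr17:26508582-26508641).
Trib3 (CARE): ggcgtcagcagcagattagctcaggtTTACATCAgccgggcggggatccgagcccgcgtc
Asns (CARE): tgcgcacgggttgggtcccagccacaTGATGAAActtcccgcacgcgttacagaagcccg
Atf3 (CARE): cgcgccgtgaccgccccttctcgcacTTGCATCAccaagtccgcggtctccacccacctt
Dusp1 (CRE): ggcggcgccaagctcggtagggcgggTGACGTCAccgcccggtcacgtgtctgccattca

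Other stress lists differed less. Heat shock genes had a median of 0.03, with 3 of 24 genes higher and 2 lower by 1 log2 unit. Within that list Bag3, a co-chaperone, differed by 1.41, Hspa1a, the inducible Hsp70, by 1.19 (TPM of at least 1 in 5 of 35 and 12 of 34 cells), and Dnajb1 by 1.06. The abundant chaperones Hspa8 and Hsp90aa1 differed by 0.02 and 0.33, and the heat shock factor Hsf1 by -1.20. Unfolded protein response genes had a median of 0.45 with 18 of 23 genes positive, led by Calr at 1.07 and the chaperone Hspa5 at 1.06. That median was 0.22 without the cells of first number 10. Oxidative stress genes had a median of 0.10 with 4 of 19 higher by 1 log2 unit, among them Hmox1, the heme-degrading enzyme, at 2.10 and the metallothionein genes Mt1 at 1.49 and Mt2 at 1.24. Hmox1 differed by 6.16 in CM-like control cells. Hypoxia genes had a median of 0.12, and Vegfa, their best known secreted target, differed by 0.04 (4.88 ± 2.20 and 4.92 ± 2.26). Targets of p53 had a median of 0.38, led by the cell cycle inhibitor Cdkn1a at 1.74.

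RNA of red blood cells moved with these genes. Of 7 erythroid markers 4 passed the filter, all of them globins, with a median difference of 1.11. The defining genes Alas2 and Klf1 were among those that did not pass. Hbb-y had a TPM of 1 or more in 9 of 35 knockout cells of batch 1 (25.7%, interval 12.5 to 43.3) and 18 of 34 of batch 2 (52.9%, interval 35.1 to 70.2). The mean level of the 4 globins in a cell ran from 0 through a median of 0.57 to 5.57 in batch 1 and from 0 through 1.52 to 5.32 in batch 2. Hbb-y was at that level in 5 of 19 and 7 of 10 CM-like control cells. The part of this RNA in the stress gene differences was not tested. Markers of the other cell types differed little, with medians of -0.05 over 12 of 13 endothelial markers, 0.14 over 11 of 14 mesenchymal markers and -0.07 over 4 of 6 epicardial markers. The mean level per cell ran from 0.34 to 2.35 and from 0.19 to 1.70 for endothelial markers, from 0.68 to 2.73 and from 1.03 to 2.56 for mesenchymal markers, and from 0 to 3.14 and from 0 to 3.26 for epicardial markers. The defining markers differed among themselves. Emcn, an endothelial marker, reached TPM of at least 1 in 0 of 35 and 2 of 34 cells and Postn, a mesenchymal one, in 0 of 35 and 0 of 34, whereas the endothelial marker Pecam1 was at that level in 35 of 35 and 34 of 34 and the epicardial marker Wt1 in 23 of 35 and 19 of 34.

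**Figure D3:**
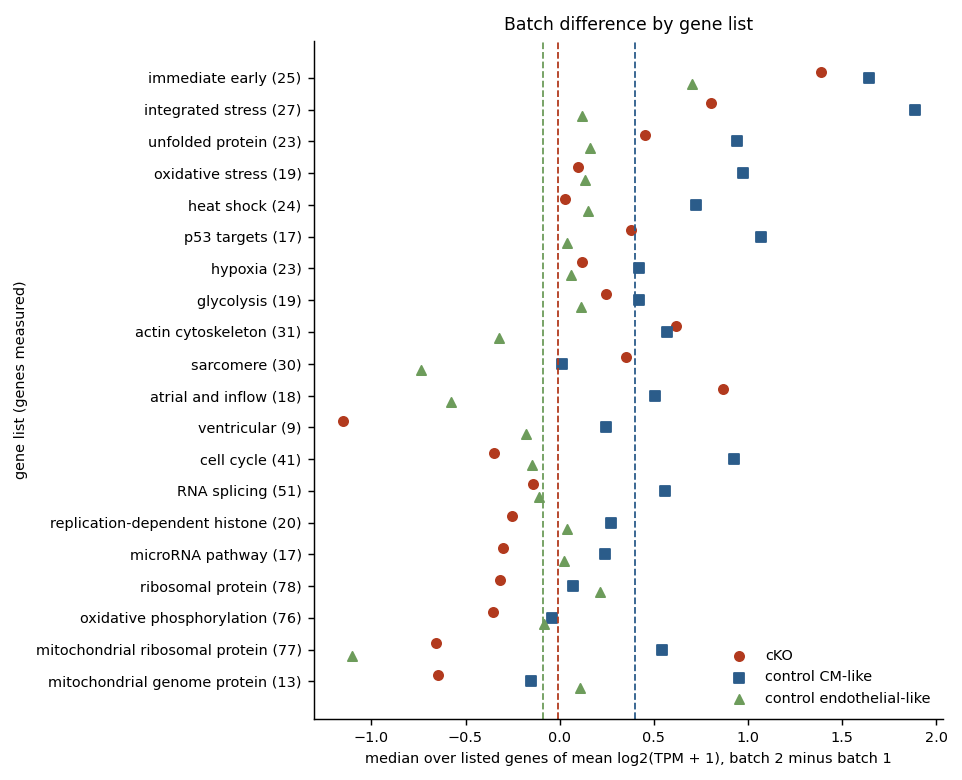
Median over each gene list of the difference in mean log2(TPM + 1), batch 2 minus batch 1, in cKO cells, CM-like control cells and endothelial-like control cells, with the number of genes measured in brackets. Dashed lines mark the median over all genes in the same cells (-0.01, 0.40 and -0.09). Immediate early genes lay to the right of the dashed line in all 3 comparisons, and ventricular genes stood furthest to the left in cKO cells (-1.15). The ventricular, atrial and inflow, and mitochondrial ribosomal lists were added after the values were seen, so their places describe a choice.

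Genes that mark the ends of the heart tube differed in opposite directions in cKO cells. These genes were gathered into 2 lists after the values were seen, so their counts describe a choice and support nothing. Myl2 (chr5:122100951-122113472, GRCm38) had the lowest difference of all genes named by rule. It ran from 5.39 through a median of 11.76 to 14.25 in batch 1, and from 0 through 6.63 to 14.78 in batch 2. The cells of batch 2 fell into a high and a low range, and 17 of 34 (50%, interval 32.4 to 67.6) were below a level of 6, against 1 of 35 (2.86%, interval 0.0723 to 14.9) in batch 1. The level of 6 was chosen after the values were seen, and below a level of 9 there were 20 of 34 (58.8%) and 8 of 35 (22.9%). The means were 10.96 ± 2.37 and 7.43 ± 4.37, a difference of -3.54, and the set means of 10.02 to 12.02 and 5.37 to 9.32 did not overlap. CM-like control cells all lay above 9, at 13.08 ± 0.62 and 12.08 ± 0.85.

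Pln, which encodes phospholamban, was at TPM of at least 1 in 24 of 35 cells of batch 1 and 8 of 34 of batch 2, with a difference of -2.55 (-1.33 in CM-like control cells). The ventricular essential light chain Myl3 differed by -1.91 (10.74 ± 1.96 and 8.82 ± 2.83), the compact myocardium factor Hey2 by -1.44 and the left ventricular factor Hand1 by -1.15. None of the 9 measured ventricular genes was positive in cKO cells, and 5 were lower by 1 log2 unit. Myh7, the slow myosin heavy chain, was nearly level at -0.17, and the ventricular repressor Irx4 stood at -0.59. In CM-like control cells Myl3, Hey2 and Hand1 stood at -0.16, 0.34 and 1.72.

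Genes of the inflow and atrial end were on the other side. Tbx5, a T-box factor of the inflow and left side, was at TPM of at least 1 in 17 of 35 and 30 of 34 cells and differed by 2.31, with set means of 1.75 to 3.33 and 4.20 to 6.19. Vsnl1, a calcium sensor of the sinus venosus, was at that level in 4 of 35 and 24 of 34 cells (means 0.65 ± 1.85 and 3.15 ± 2.48, difference 2.51) and in 0 of 19 and 0 of 10 CM-like control cells, which allows up to 15.8% and 30%. The nuclear receptor Nr2f2, which sets atrial identity, was at TPM of at least 1 in 6 of 35 and 22 of 34 cells and differed by 1.53. Wnt2, made by inflow progenitors, differed by 2.00 and the lipid transfer gene Stard10 by 1.70. Myh6, the fast myosin heavy chain, differed by 1.74 (7.33 ± 1.53 and 9.07 ± 1.07) without overlap of the set means, and by -0.23 in CM-like control cells. Nppb and Nppa, the natriuretic peptides, differed by 1.84 and 0.99. Of the 18 measured genes of this list 15 were positive and 8 were higher by 1 log2 unit, with a median of 0.87. The 3 below 0 were Angpt1, Hey1 and Tbx18.

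Some of these genes were related across the cells of 1 batch. Among the 34 cells of batch 2, the correlation of Myl2 with Vsnl1 was -0.65, with Tbx5 -0.56, with Wnt2 -0.53 and with Nr2f2 -0.51, and it was 0.61 with both Pln and Myh7. Among the 35 cells of batch 1 the correlation of Myl2 was -0.55 with Vsnl1, -0.59 with Wnt2, -0.66 with Nr2f2 and 0.52 with Pln, and -0.25 with Tbx5. These are descriptions over cells that share a sample, with no test. Over the whole atrial and inflow list the correlation with Myl2 ran from -0.66 to 0.59 in batch 1 and from -0.65 to 0.12 in batch 2, with Nppa at 0.10 and 0.12, and over the other ventricular genes from -0.03 to 0.81 and from 0.17 to 0.61. The immediate early genes Fos (-0.30 and -0.40) and Ctgf (-0.34 and -0.45) were also negatively correlated with Myl2 in both batches. The stress gene Trib3 stood at 0.21 and -0.23. The part of the chamber difference in the stress gene differences, or the reverse, was not tested. Averaged over detecting cells (TPM above 0) only, the ventricular median turned to 0.13 and the atrial and inflow median was 1.92, beside a median of 0.97 over all genes in that calculation.

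**Figure D4:**
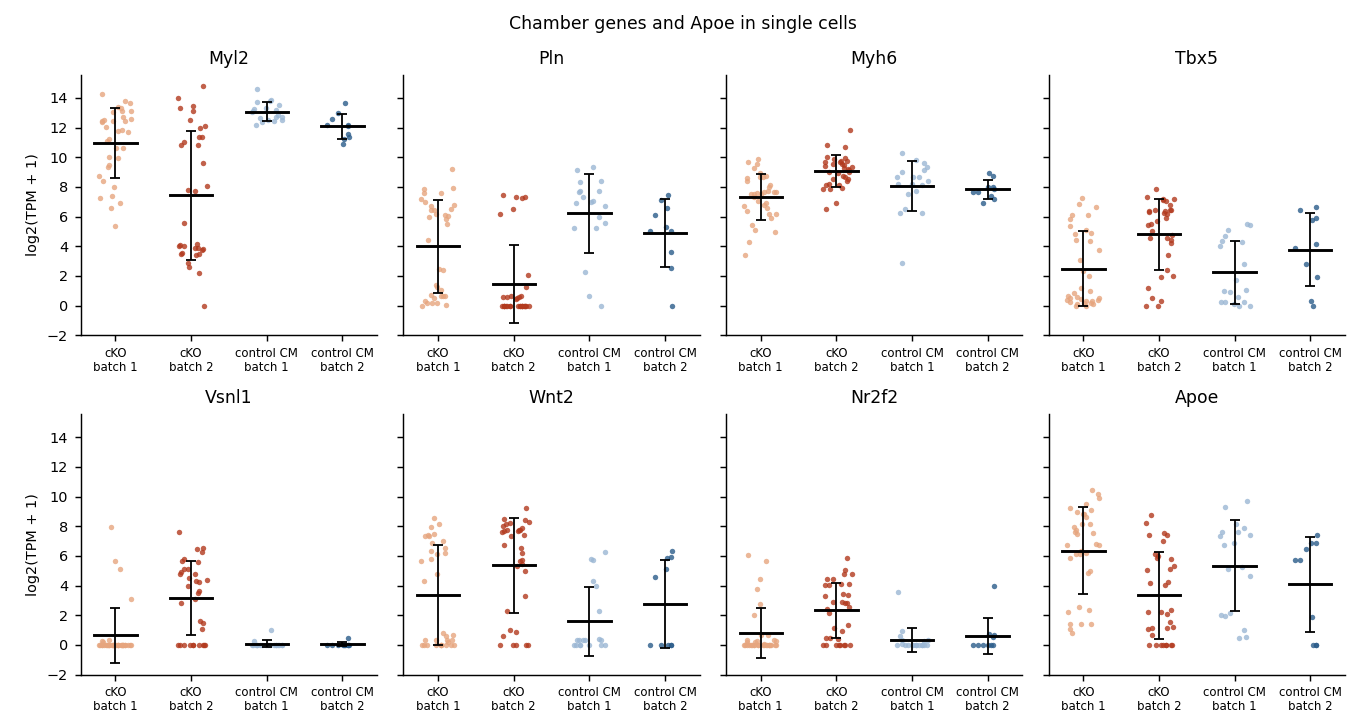
Level of 7 chamber genes and Apoe, log2(TPM + 1), in each cKO cell and each CM-like control cell (control CM) of batch 1 and batch 2. Points are cells, and the black line and bar give the mean and SD across cells. Myl2 fell into a high and a low range in cKO cells of batch 2 (17 of 34 cells below 6), and Vsnl1 was at TPM of at least 1 in 24 of 34 of them and in no CM-like control cell.

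The remaining muscle genes differed less. Of 30 sarcomere and muscle genes 22 were positive, with a median of 0.35, 3 higher and 3 lower by 1 log2 unit. Actc1 and Ttn differed by 0.42 and 0.52 and Tnnt2 by 0.79. The cardiac factors Nkx2-5 and Gata4 were level at 0.13 and -0.02, while Gata6 and Tbx20 differed by 1.02 and 1.20 and Mef2c by -0.82. Actin cytoskeleton genes were shifted together by a small amount, with 30 of 31 positive, 5 higher by 1 log2 unit and a median of 0.62. Tpm2, beta tropomyosin, led at 1.40, followed by the keratin gene Krt19 at 1.38 and the actin cross-linker Actn4 at 1.31 (6.21 ± 1.69 and 7.52 ± 1.59). Actb itself differed by 0.16 and Gapdh by 0.26. The cytoskeletal median was 0.57 in CM-like control cells and in endothelial-like cells -0.32. Relative to the medians of all genes there, these were 0.17 and -0.23. Of 8 angiogenesis genes all were positive, with a median of 0.62. Ctgf at 2.79 and Rhob, a small GTPase, at 1.76 led, and Ctgf is an immediate early gene as well. This list, like the others, was chosen with earlier results of these data known. Its median was 0.80 in CM-like and 0.08 in endothelial-like control cells. Relative to the medians of all genes there, these were 0.40 and 0.17.

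Mitochondrial transcripts were lower in batch 2. All 13 protein genes of the mitochondrial genome had a negative difference, with a median of -0.65, and 3 were lower by 1 log2 unit. That median was -0.39 without the cells of first number 3, which include the cell with 61.4% of its TPM in mitochondrial rows. mt-Co1, subunit 1 of cytochrome oxidase, went from 11.36 ± 1.09 to 10.74 ± 1.42 and mt-Nd1, of complex I, from 12.10 ± 1.34 to 11.54 ± 1.55. Larger differences were found for mt-Nd3 of complex I at -2.07 and mt-Atp6 of ATP synthase at -1.76, the latter at 1.24 in CM-like control cells. In CM-like control cells the median was -0.15 and in endothelial-like cells 0.11. Relative to the medians of all genes there, these were -0.55 and 0.20. The 2 mitochondrial rRNA rows had a median of 0.05. All 15 measured mitochondrial tRNA rows were lower in cKO batch 2, 11 of them by 1 log2 unit, with a median of -1.13 (-1.88 in CM-like and 0 in endothelial-like control cells). mt-Ts1, a serine tRNA, went from 9.28 ± 1.18 to 6.67 ± 2.91. As shares of TPM, rows of the mitochondrial genome made up a median of 3.25% in batch 1 and 2.82% in batch 2.

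Nuclear genes for the same organelle were also mostly negative in cKO cells. Oxidative phosphorylation genes had a median of -0.35, with 11 of 76 positive and 5 lower by 1 log2 unit, a share near the 4.42% of all genes, the lowest being Ndufs8 of complex I at -1.58 and Atp5l of ATP synthase at -1.52. Mitochondrial ribosomal proteins, a list added after the values were seen, had a median of -0.66 with 22 of 77 lower by 1 log2 unit and none higher. Mrps12 was at TPM of at least 1 in 33 of 35 and 24 of 34 cells and differed by -2.43, and Mrps17 by -2.38 without overlap of the set means. This list did not behave alike in control cells, with medians of 0.54 in CM-like and -1.11 in endothelial-like cells. Relative to the medians of all genes there, the list stood at 0.14 and -1.01. In cKO cells with 7500 to 9500 detected genes, 10 of batch 1 and 19 of batch 2, its median was 0.07, beside a median of 0.21 over all genes in those cells. The immediate early median was 1.26 in the same cells. Cytoplasmic ribosomal proteins had a median of -0.32 with 12 of 78 positive and 3 lower by 1 log2 unit, a share near the 4.42% of all genes. The lowest was Rpl27 at -1.55, and the median was -0.20 without the cells of first number 1. Cell cycle genes had a median of -0.35, with Ccnd1 and Ccnd2, the D-type cyclins, at -1.13 each, and the median was -0.13 without the cells of first number 10, -0.58 without those of first number 8, and 0.42 in the cells with 7500 to 9500 detected genes, where that of all genes was 0.21. RNA splicing genes had a median of -0.14. Relative to the medians of all genes in CM-like and endothelial-like control cells, oxidative phosphorylation genes stood at -0.44 and 0.01 there. Cytoplasmic ribosomal proteins stood at -0.33 and 0.30, cell cycle genes at 0.52 and -0.06 and RNA splicing genes at 0.16 and -0.02. In cKO cells, among genes at TPM of at least 1 in most cells of either batch, the 10% with the shortest transcripts had a median of -0.42. The part of transcript length in the list medians of this paragraph was not tested.

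Short transcripts were lower in batch 2. Lengths were taken from the longest GENCODE transcript of each gene, and 13513 of the 13779 genes (98.1%) had one. Genes were ordered by length into 10 groups of equal size. The shortest group, of 1352 genes with a median length of 692 bases, had a median difference of -0.24, and 166 of its genes (12.3%) were lower by 1 log2 unit against 27 higher. The share lower by 1 log2 unit was 6.44% in the next group, and 1.63% in the longest group, where the median difference was 0.06. From the fifth group upward the medians lay between 0.01 and 0.06. Across genes, Spearman's correlation of the difference with length was 0.14, a description over genes that are not independent. Among the 6175 genes with a length and TPM of at least 1 in most cells of either batch, the shortest group stood at -0.42 and the longest at 0.13. In CM-like control cells the shortest group was also the lowest, at 0.05 against 0.37 to 0.50 in the others, whereas in endothelial-like cells it stood at -0.15 and the next group at -0.20. By the median transcript length of each gene instead, the shortest group stood at -0.17 in cKO cells, with a Spearman's correlation of 0.10. By that length, the shortest group in CM-like control cells stood at 0.24 and the longest at 0.30. The correlation there was -0.04, against 0.04 by the longest transcript. GC content of the transcript was less related to the difference, with a correlation of 0.07. Long transcripts as a fixed list had a median of 0.14 over 27 genes.

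**Figure D5:**
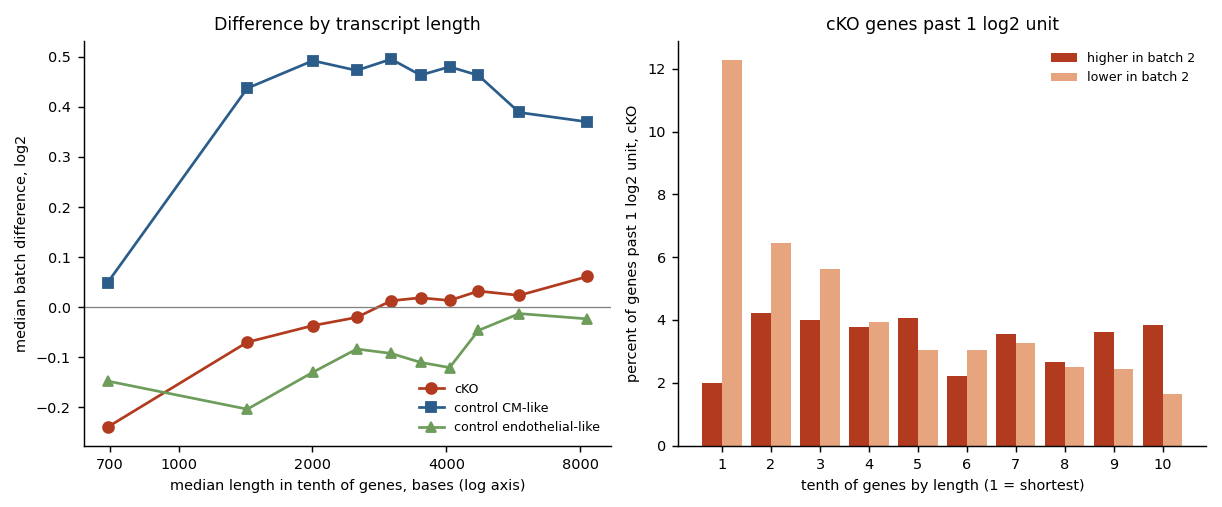
Left, median difference between batches (batch 2 minus batch 1, log2) in 10 equal groups of genes ordered by the length of the longest transcript, in cKO cells, CM-like control cells and endothelial-like control cells, with length on a log axis. Right, percent of cKO genes higher or lower in batch 2 by 1 log2 unit in each group, where 12.3% of the shortest group were lower and 2.00% higher.

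Classes of short or repeated RNA had the lowest medians. Of 154 rows annotated as miRNA genes, 34 (22.1%) were lower by 1 log2 unit and 4 higher, with a median of -0.36. The 12 snoRNA rows had a median of -0.74, with 4 lower and 2 higher. Of 486 processed pseudogenes 24 (4.94%) were lower and 2 higher, with a median of -0.19. Among 1080 long non-coding genes 24 (2.22%) were lower and 4 higher, with a median of 0.02. The share lower over all genes was 4.42%, so the pseudogene share was near it and the long non-coding share below it. The largest single difference of the whole table lay in such a row, named here after its values were seen. Gm15427, annotated on chromosome 1, had a TPM of 1 or more in 33 of 35 knockout cells of batch 1 and 12 of 34 of batch 2 (6.19 ± 1.96 and 1.76 ± 2.51, difference -4.43), and it differed by -6.18 in CM-like and -4.33 in endothelial-like control cells. Gm2000 differed by -3.18, -3.16 and -4.50. Rows of pseudogenes and small RNAs can share reads with near-identical copies, so these values are uncertain.

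Only part of the batch difference was common to the genotypes. Of the 461 genes higher in batch 2 in cKO cells, 253 (54.9%) were also higher by 1 log2 unit in CM-like control cells, where 26.6% of all genes were, and they made up 6.91% of the 3661. Of the 609 lower genes, 60 (9.85%) were also lower in CM-like control cells, where 1.89% of all genes were, and they made up 23.1% of the 260. In all 3 comparisons 53 genes were higher and 25 lower. The 53 included Atf3, Ctgf, Jun, Klf6, Nr4a1, Hmox1, Ppp1r15a, Sesn2, Asns, Mt1 and Mt2, and the 25 were mostly predicted genes, pseudogenes and small RNAs. Across genes the correlation of the cKO difference was 0.19 with that of CM-like and 0.11 with that of endothelial-like control cells, a description with no test. Acad10, a mitochondrial acyl-CoA dehydrogenase, led the genes that the rule named as lower in cKO and CM-like control cells. It went from 5.90 ± 1.14 to 3.25 ± 1.65 in cKO cells (difference -2.64, set means 5.22 to 6.31 and 1.44 to 3.97) and differed by -3.0 in CM-like and -1.52 in endothelial-like control cells. The others named by the same rule were the histone genes Hist1h2ae and Hist2h2ac at -1.92 and -1.82, the cell death gene Bik at -1.64, the imprinted gene Peg12 at -1.53 and the enolase copy Eno1b at -1.52. In endothelial-like control cells Hist1h2ae and Hist2h2ac were on the other side, at 3.49 and 0.87, Bik stood at -1.21, and Peg12 and Eno1b at -0.37 and -0.05. Histone genes and Eno1b have near-identical copies, and their values are uncertain. Averaged over detecting cells only, Hist1h2ae, Hist2h2ac and Bik stood at 0.24, 1.04 and 1.10, beside a median of 0.97 over all genes in that calculation. On the higher side the rule named Ctgf, Klf6, Atf3, Dusp1, Nnat, an imprinted proteolipid gene, at 2.73 and the membrane linker Ezr at 2.22. Ezr and Nnat were at -1.08 and -0.74 in endothelial-like control cells and Dusp1 at 0.26, while Ctgf, Klf6 and Atf3 were higher there too.

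Several genes named for their size of difference belonged to none of the lists. Apoe, the lipid carrier, went from 6.34 ± 2.94 to 3.34 ± 2.92 (difference -3.0), with TPM of at least 1 in 34 of 35 and 25 of 34 cells, and stood at -1.25 in CM-like control cells. Stra13 and Itm2a differed by -2.67 and -2.65, and each was at TPM of at least 1 in 17 of 34 cells of batch 2 against 31 and 32 of 35 of batch 1. Mylpf, a fast skeletal light chain, differed by -2.59, Comtd1 by -2.52, Rpp30, a subunit of RNase P, by -2.31 and G0s2, an inhibitor of lipolysis, by -2.30. In CM-like control cells, where 73.4% of all genes were positive around a median of 0.40, these genes other than Apoe stood between 0.48 for Rpp30 and 2.14 for Comtd1. Over detecting cells only, Mylpf and Comtd1 stood at 1.05 and 0.52 in cKO cells, beside 0.97 over all genes. On the higher side Olfml2b differed by 2.59, Map1s by 2.50 (TPM of at least 1 in 3 of 35 and 22 of 34 cells) and Thumpd1 by 2.42. Aldoc, an aldolase, and Pfkfb3, which raises glycolytic flux, differed by 2.00 and 2.14, while the glycolysis list had a median of 0.25. The noncoding RNAs of the imprinted Dlk1-Dio3 region were lower in batch 2, Rian at -2.19, Mirg at -1.75 and Meg3 at -1.35, and stood at 0.09, -0.14 and 0.32 in CM-like control cells. Mir22hg, the host of miR-22, was higher by 1.5. Genes of the microRNA pathway had a median of -0.30 over 17 genes. Malat1, a nuclear RNA, differed by 0.51 (13.24 ± 1.35 and 13.75 ± 1.11).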

How the data were processed

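Single-cell libraries were made by Smart-seq2 from cells of the ventricular part of E9.5 hearts. The authors quantified transcripts with Salmon against mm10 and deposited 1 table of TPM, whose columns summed to between 996133 and 999992 in the cKO cells. The version and the annotation were not given in the sources used here. TPM keeps no sequencing depth, so the number of genes above 0 stood in for it. Amplified reads carried no molecular identifiers, and intervals cover counting error only.

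The 143 columns were matched by title to 170 labelled samples, and the other 27 were not analysed here. Genes with TPM above 0 in more than 10 cKO cells were kept, 1 was added to TPM before log2, and cells were averaged with Python 3.11.15 and pandas 2.3.3. Each genotype and batch was 1 sample, so no test was run, and "past the fold" means 1 log2 unit. The calculation was tested on simulated data, with independent cells and shifts of 2 or 3 log2 units in widely detected genes. At least 88% and 98% of these genes passed 1 log2 unit with the right sign. These shares describe recovery only. They do not say how many genes without a shift pass 1 log2 unit, so the gene counts above were not tested against sampling of cells. Smaller shifts and sparsely detected genes were not simulated. Cells were clustered by Ward linkage on 55 markers into 5 clusters, named by markers above all other cells. Every cell had been picked by hand, and no doublet caller was run. Annotation came from GENCODE M21 and RefSeq (GRCm38).

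The genes named are the 12 largest and 12 smallest differences with TPM of at least 1 in most cells of the higher batch (no predicted genes, pseudogenes or small RNAs), extremes and abundant members of each list, the 6 most shared in each direction, and 18 fixed names. Members and lists were chosen with earlier results of these data known. Genes outside the rule were named after their values were seen, such as the chamber genes, Rhob and the imprinted RNAs. Results under other pseudocounts, filters, scalings, cells and clusterings are given below.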

Additional observations from a re-analysis of the deposited data

Results flagged for a closer look

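Differences between batches that had opposite signs in the genotypes, each past 1 log2 unit, were found for 5 of the genes named by rule. Fos differed by 2.79 in cKO cells and by -1.13 in CM-like control cells, and Egr1 by 1.87 and -1.13. Comtd1, a methyltransferase family gene, differed by -2.52 and 2.14, Mrps17, of the mitochondrial ribosome, by -2.38 and 1.27, and G0s2 by -2.30 and 1.29. The difference between genotypes was not tested for any of them, since each genotype and batch was 1 sample. In these control cells the median over all genes was 0.40 and in cKO cells -0.01, so the contrast was larger against that median for Fos and Egr1 and smaller for Comtd1, Mrps17 and G0s2. Over detecting cKO cells only, Comtd1 stood at 0.52, beside a median of 0.97 over all genes.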

How the results depend on the processing

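No paired analysis was possible because the labels pair no cells between batches and no test was run. Changing 1 choice at a time, the 461 higher and 609 lower genes became 1013 and 2064 with a pseudocount of 0.1, 71 and 83 with 10, 988 and 1127 by medians, 6713 and 217 over detecting cells only, and 30 and 41 past 2 log2 units. Higher genes numbered 1229 by the ratio of means and 2676 in cells with 7500 to 9500 detected genes, a range chosen after seeing the data because the planned interquartile ranges did not overlap. Leaving out each of the 12 sets gave 419 to 753 higher (753 without first number 12) and 499 to 870 lower.

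The immediate early median was 1.99 with a pseudocount of 0.1, 0.77 with 10 and 2.48 over detecting cells, and the integrated stress median 1.58 over detecting cells. The ventricular median was -1.94 with a pseudocount of 0.1, -0.48 with 10, -0.64 by the ratio of means, -0.48 by medians, -2.23 for genes at TPM of at least 1 in most cells and 0.13 over detecting cells. The atrial and inflow median was 1.18, 0.42, 0.14 (medians), 1.42 (genes at TPM of at least 1 in most cells) and 1.92 (detecting cells), and 0.70 to 1.16 with a set left out. The cell cycle median turned to 0.12 by the ratio of means, 0.84 over detecting cells and 0.42 in the detection range. The mitochondrial ribosomal median turned to 0.26 and 0.068 under the last 2 of these.

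Among control cells, the immediate early median was 1.97 over all, 1.65 in CM-like and 0.70 in endothelial-like cells, the integrated stress median 1.89 and 0.12 in the latter classes, and the mitochondrial protein median turned to 0.11 in endothelial-like cells. Genes whose set means did not overlap numbered 24 higher with a pseudocount of 0.1, 18 higher after centring each cell, 86 lower in CM-like cells only and 33 lower with TPM below 1 set to 0. With 4 clusters 100% of cKO cells of batch 1 were CM-like. The median of detected genes differed by -368 with TPM below 1 set to 0, against -1986. Over detecting cells Hspa1a turned to -0.14 (0 by medians), Mylpf to 1.05, Comtd1 to 0.52, Hist1h2ae to 0.24, Hist2h2ac to 1.04, Bik to 1.10 and Dgcr8 to 0.19, and in the detection range Bik stood at 1.18 and Peg12 at 0.00017. Calculations over detecting cells put the median of all genes at 0.97, since cells at 0 are left out, and the detection range puts it at 0.21, so a change of sign under either is not a change relative to other genes unless it passes that median. The cause of the other changes was not tested. For named genes and Myl2 shares, 475 values stayed within a limit, 64 moved further and 10 turned. For gene lists, gene counts, length, class shares and detected genes, 162 stayed within it, 35 moved further and 7 turned. The limit was the SD of set means for genes, lists and detected genes, and the exact interval for shares. Counts and length had a fixed limit. Fits with a set left out are not counted here. TPM holds no depth, so a gene at 0 may have been missed.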

Other observations

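The epicardial-like control cells, 4 in batch 1 and 9 in batch 2, were described above as a class only for Fos and Egr1. Counts and medians over all control cells include them. Over the same genes their batch difference had a median of 0.14, and the immediate early list had a median of 2.72, the integrated stress list 1.06 and the mitochondrial ribosomal list -0.78. The immediate early list was therefore above the median of all genes in every class of cells with a value in both batches that was examined here, cKO cells, CM-like, endothelial-like and epicardial-like control cells. The 3 erythroid-like control cells were all of batch 2.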
